A study of Mus musculus with 18 samples.

Results

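Axon guidance genes encode the ligands and receptors that steer growing axons, and many stay active in the adult brain at synapses, in glia and in blood vessels. The genes followed here are the netrins and netrin-G proteins with their receptors Dcc and Unc5, the Slits with their Robo receptors, the semaphorins with neuropilins and plexins, and the ephrins with their Eph receptors. They were picked out by gene symbol, with earlier results of these data known. Of the 56980 deposited features 71 matched, each symbol having 1 feature. Of these 71 genes, 52 passed a filter on low counts and were tested, among 11835 tested genes in all.

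RNA came from hypothalamus, which regulates appetite and energy expenditure, of male C57BL/6JGpt mice that were 7 months old per the deposited sample table, with 6 animals in each of 3 groups. Diet-induced obese (DIO) mice had eaten high-fat food from an age of 6 weeks for at least 16 weeks. They were gavaged 2 times a day with TN-783 at 50 mg/kg, which blocks NLRP3, a sensor protein of the inflammasome, or with its vehicle, for 29 days per the labels and 28 days per the sample table. Lean mice ate chow and were not dosed, so diet and dosing differ together between obese and lean mice, and the labels do not say whether lean mice took part in the 14 days of vehicle gavage that came before dosing. Each library is labelled as an independent biological sample, and p-values thus measure the variation among animals.

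Library totals were 1993457 to 3589654 counts in TN-783 mice, 1699650 to 2761378 in vehicle mice and 2069960 to 3695646 in lean mice. Levels are CPM, counts scaled to the library total after TMM normalization, of a 3' assay that primes on the poly(A) tail, so a transcript gives tags near its end and CPM was not divided by length. The 8 hypothalamic markers (Nkx2-1, Sim1, Otp, Hcrt, Pmch, Agrp, Oxt and Avp) were all detected in each group, with a summed level of 245 to 440 CPM in TN-783, 298 to 543 in vehicle and 332 to 556 in lean libraries. Vehicle replicates 2 and 4 held pituitary transcripts, with the prolactin gene Prl at 1773 and 1273 CPM, against at most 30.2 CPM in the other 16 libraries. Lean replicate 6 stood apart from the other lean libraries. Ribosomal protein genes took 7.73% of its counts, against 4.09 to 4.94% in the other lean libraries, and its RNA integrity score was 10.0, against 9.4 to 9.7. Its oligodendrocyte markers summed to 6082 CPM, against 2320 to 3005 CPM, and its neuron markers to 1503 CPM, against 2028 to 2268 CPM. Differences from lean mice are therefore also given without this library.

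Netrins attract axons through Dcc and repel them through Unc5 receptors, Slits repel through Robo receptors, class 3 semaphorins are secreted and act through neuropilin and plexin complexes, and ephrins bound to one cell signal to Eph receptor kinases on the next. In the developing brain these systems also guide migrating neurons of the hypothalamus, including those that make gonadotropin-releasing hormone. The promoter windows of Unc5c, Slit2, Nrp2 and Ephb1 are shown because these genes are among the 6 with the smallest p between vehicle and lean mice and have 1 window each in the table; the windows run 5' to 3' along the gene, from 250 bases before to 50 bases after the start of transcription, in RefSeq's GRCm38.p6 tables (the deposited counts were made on GRCm39, and no coordinate is carried between builds). Capitals mark GGGCGG or its reverse complement CCGCCC, the core of the GC box. The windows are Unc5c at chr3:141465314-141465613 (plus strand), Slit2 at chr5:47982905-47983204 (plus), Nrp2 at chr1:62703067-62703366 (plus) and Ephb1 at chr9:102354644-102354943 (minus).
Unc5c: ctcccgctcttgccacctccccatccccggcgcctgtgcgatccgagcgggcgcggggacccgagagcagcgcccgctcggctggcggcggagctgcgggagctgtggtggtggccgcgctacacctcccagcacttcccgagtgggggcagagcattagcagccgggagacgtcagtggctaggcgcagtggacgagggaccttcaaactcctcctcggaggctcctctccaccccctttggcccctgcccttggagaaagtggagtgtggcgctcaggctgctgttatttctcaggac
Slit2: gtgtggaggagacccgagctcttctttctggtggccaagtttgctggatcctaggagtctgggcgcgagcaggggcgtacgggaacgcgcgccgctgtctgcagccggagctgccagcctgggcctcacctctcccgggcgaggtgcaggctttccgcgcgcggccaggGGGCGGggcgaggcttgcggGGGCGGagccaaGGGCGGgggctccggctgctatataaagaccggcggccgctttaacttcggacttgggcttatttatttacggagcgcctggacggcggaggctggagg
Nrp2: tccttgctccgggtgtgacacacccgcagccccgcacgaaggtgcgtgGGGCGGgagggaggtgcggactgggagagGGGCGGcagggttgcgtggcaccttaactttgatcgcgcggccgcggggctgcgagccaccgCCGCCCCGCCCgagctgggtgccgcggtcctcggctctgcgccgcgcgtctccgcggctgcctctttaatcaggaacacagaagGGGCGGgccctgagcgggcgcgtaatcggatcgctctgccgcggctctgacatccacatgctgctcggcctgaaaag
Ephb1: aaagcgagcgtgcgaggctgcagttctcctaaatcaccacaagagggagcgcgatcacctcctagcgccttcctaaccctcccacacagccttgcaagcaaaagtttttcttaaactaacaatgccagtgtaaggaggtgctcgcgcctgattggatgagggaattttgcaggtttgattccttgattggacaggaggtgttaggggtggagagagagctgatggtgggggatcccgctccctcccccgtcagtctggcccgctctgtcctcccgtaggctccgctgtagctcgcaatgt
Slit2 held 3 of these GC box cores and Nrp2 held 5, one pair of which overlapped, while the windows of Unc5c and Ephb1 held 0. CpG dinucleotides numbered 24 in the Unc5c window, 30 in Slit2, 37 in Nrp2 and 14 in Ephb1. RefSeq windows were found for 61 of the 71 genes. Of their 77 windows 70.1% held the GC box core on either strand, against 35.7% of all 32851 windows of the table, and 2 of the 77 held TATAAA or its reverse complement TTTATA, against 13.6% of all windows. The median number of CpG was 19 in the guidance genes' windows and 7 in all windows. The table held windows of 27025 genes, against 11835 genes tested here, and windows of tested genes alone were not counted. A match describes the letters and not a bound site.

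Levels spanned a wide range. Among tested members Sema6d, a membrane semaphorin, had the highest mean in TN-783 and vehicle mice, and Epha5 in lean mice. Sema6d was at 82.2 ± 3.86 CPM in TN-783, 78.4 ± 12.3 in vehicle and 74.4 ± 8.74 in lean mice (SD, n = 6). The EphA receptor Epha5 was at 62.5 ± 15.7, 64.0 ± 14.7 and 76.8 ± 22.2 CPM in TN-783, vehicle and lean mice, and Ntng1, which encodes the membrane-anchored netrin-G1, at 54.8 ± 9.42, 56.3 ± 14.5 and 74.2 ± 16.7 CPM. Plxnc1, a receptor of Sema7a, led the plexins with 64.5 ± 8.84 CPM in TN-783, 61.7 ± 14.3 in vehicle and 71.9 ± 16.2 in lean mice. In lean mice these 4 genes lay within one another's SD. In TN-783 libraries all values of Sema6d (78.6 to 89.6 CPM) lay above those of Plxnc1 (50.2 to 73.8 CPM) and Ntng1 (45.9 to 71.0 CPM). Robo receptors and secreted semaphorins were low. Robo2, the most abundant of its family, was at 11.1 ± 1.63, 10.0 ± 3.41 and 9.92 ± 1.47 CPM in TN-783, vehicle and lean mice, and Sema3c, the most abundant secreted semaphorin, at 13.9 ± 3.50, 14.3 ± 1.58 and 15.3 ± 3.01 CPM. All levels summed over the 71 genes came to 1039 to 1376 CPM in TN-783 libraries, 1080 to 1362 in vehicle libraries and 1009 to 1517 in lean libraries, where lean replicate 6 was the lowest.

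The other 19 members did not pass the filter. Ntn1, the founding netrin, had 59 counts over the 6 TN-783 libraries, 40 over the vehicle libraries and 57 over the lean libraries, and Slit3 had 53, 40 and 50. Ntn4, Efna1, Sema3f, Sema3g, Epha3, Sema3b, Plxnd1, Ephb4, Epha6, Sema5b and Epha8 had 11 to 54 counts per group. Epha2, Robo3, Ntn5, Efna4, Epha1 and Ntng2 had 0 to 7. With no filter 0 of these 19 were called in any comparison by edgeR, and the smallest unadjusted p was 0.0128, for Efna4 with 0 counts in TN-783 and 5 in lean mice.

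**Figure D1:**
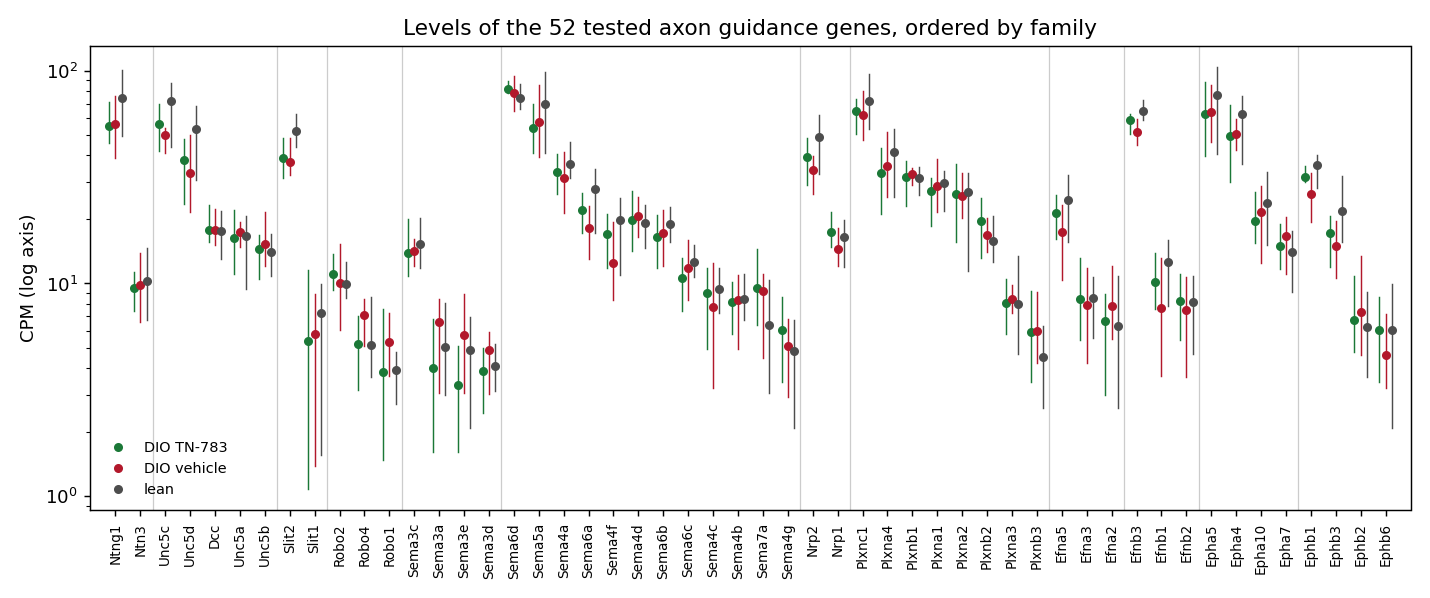
Mean CPM (points) and range over 6 libraries (lines) of the 52 tested genes on a log axis, in DIO TN-783 (green), DIO vehicle (red) and lean (grey) mice, with families separated by vertical lines. Sema6d, Epha5 and Ntng1 are among the highest, and the Robo receptors and secreted semaphorins among the lowest.

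DIO vehicle mice were first set against lean mice, a contrast of diet and gavage together. Unc5c, Unc5d, Slit2, Nrp2, Sema6a and Ephb1, the 6 members with the smallest unadjusted p, had lower levels in vehicle mice. Their log2 differences were -0.68 to -0.44, and in the filtered edgeR fit none passed correction over all genes. With all 18 libraries 0 of the 52 tested members were called at an adjusted p of 0.05 (edgeR quasi-likelihood test, Benjamini-Hochberg). Over all tested genes 0.00845% were called by edgeR, which is 1 gene. DESeq2 also called 0 members. With limma voom and sample weights 7 members were called, all lower. Over all 11835 tested genes that fit called 133, of which 77 were higher and 56 lower. With edgeR and no filter on low counts 5 members were called, all lower. Of the 37272 genes then tested 126 were called, 66 higher and 60 lower. In the filtered edgeR fit, at an unadjusted p under 0.05, 12 members were lower and 1 was higher. The 13 are 25.0% of the tested members, against 10.9% of all tested genes. By direction 23.1% of members were lower, against 5.55% of all tested genes, and 1.92% higher, against 5.32%. Among genes within the members' range of mean CPM 5.24% were lower at that level. The median log2 difference was -0.11 over the 52 members and 0.01 over all tested genes, and 61.5% of members lay below 0, against 48.9% of genes. The 8 hypothalamic markers had a median log2 difference of -0.27, with 5 of 8 at an unadjusted p under 0.05, and their part in the members' differences was not tested. Because this is bulk RNA, fewer cells of a type and less RNA per cell cannot be told apart.

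**Figure D2:**
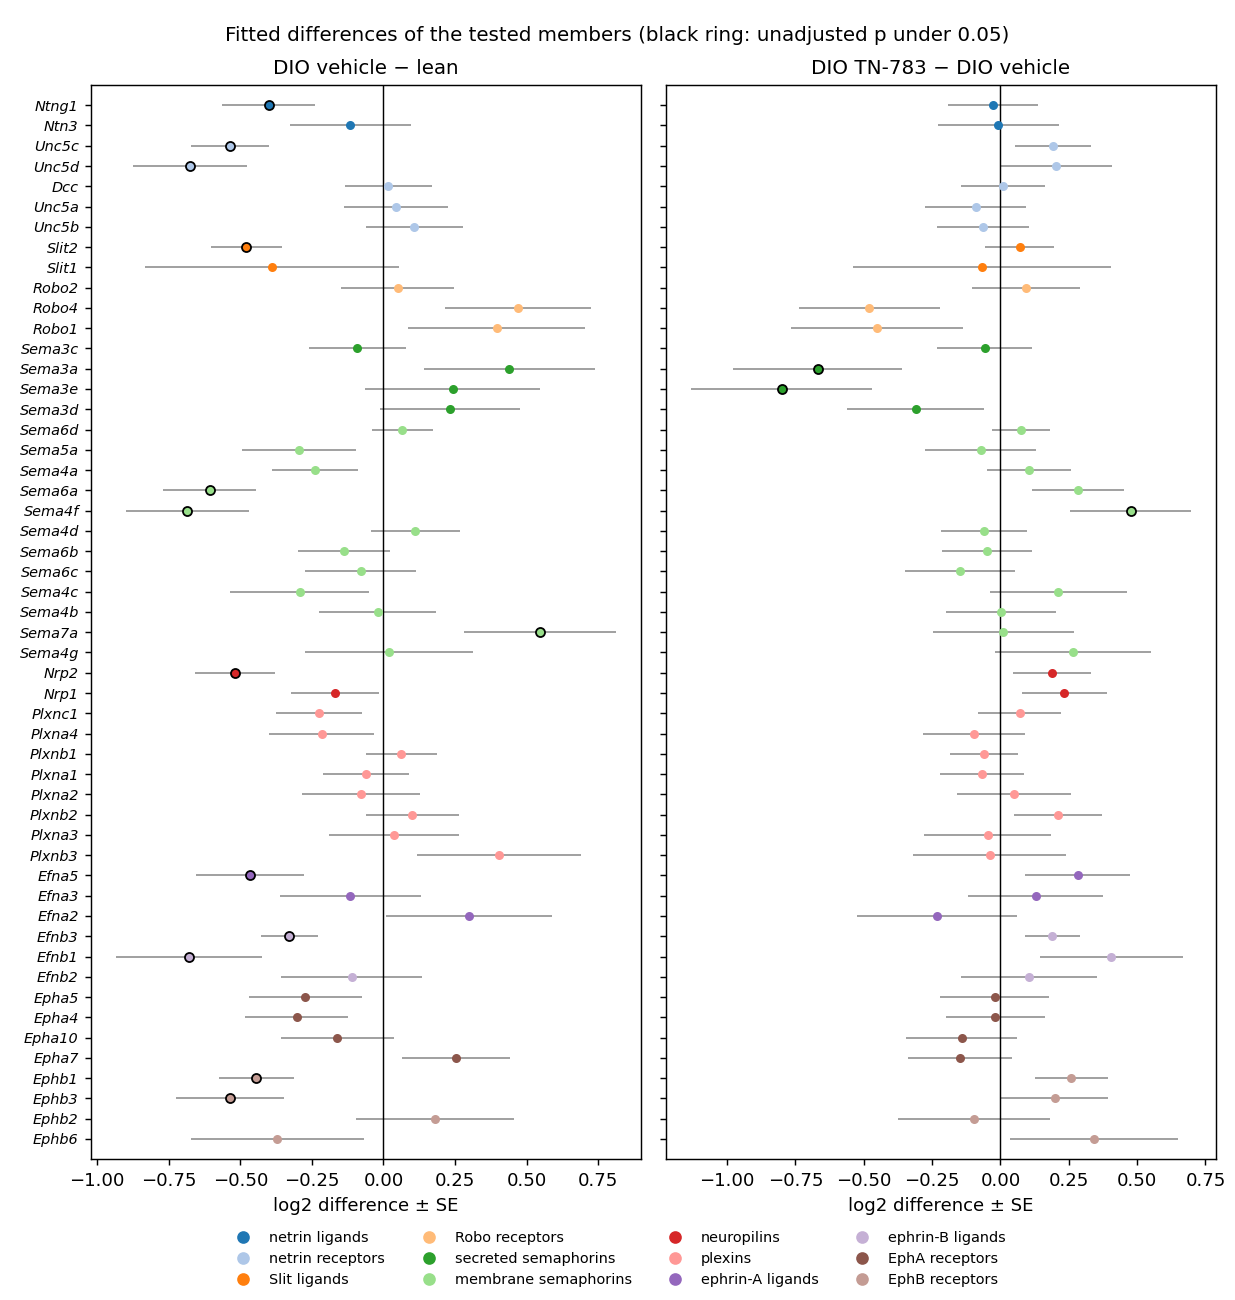
Fitted log2 difference with its standard error for each of the 52 tested genes, coloured by family, for DIO vehicle minus lean (left) and DIO TN-783 minus DIO vehicle (right); black rings mark an unadjusted p under 0.05. On the left 12 ringed genes lie below 0 and Sema7a above it, and on the right 3 are ringed.

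In the netrin system Unc5c and Unc5d, which encode repulsive netrin receptors, were lower, and Dcc, Unc5a and Unc5b were near the lean level. Unc5c (ENSMUSG00000059921) was at 50.7, 53.6, 41.1, 53.4, 52.6 and 46.3 CPM in the 6 vehicle libraries, against 74.1, 76.2, 75.0, 87.4, 75.4 and 43.7 CPM in the lean libraries. All vehicle values thus lay below all lean values except that of lean replicate 6. The log2 difference was -0.54 (SE 0.14, edgeR unadjusted p = 0.000549, adjusted p = 0.207), and 6 of 6 vehicle libraries were under the lean median. Unc5d ran between 21.8 and 49.6 CPM in vehicle libraries (median 31.4) and between 30.7 and 68.4 CPM in lean libraries (median 56.4), a log2 difference of -0.68 (SE 0.20, edgeR adjusted p = 0.283). These groups overlapped, with lean replicate 6 again the lowest of its group. Dcc, the attractive receptor, averaged 17.9 ± 2.80 CPM in vehicle and 17.6 ± 2.84 CPM in lean mice (SD, n = 6), with a log2 difference of 0.02 (SE 0.15). Ntng1, which anchors to the axon membrane and binds its own synaptic partner rather than Dcc, was at 39.0 to 76.0 CPM (median 59.3) in vehicle and 49.4 to 101 CPM (median 74.3) in lean libraries, a log2 difference of -0.40 (SE 0.16, edgeR adjusted p = 0.389).

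Among Slits and Robos the ligand Slit2 had lower values, and the 3 tested Robo genes had log2 differences above 0. Slit2 (ENSMUSG00000031558) was at 35.4, 38.3, 32.7, 48.1, 36.5 and 32.4 CPM in vehicle libraries, against 50.1, 52.9, 53.3, 62.7, 49.2 and 43.7 CPM in lean libraries. The groups overlapped because vehicle replicate 4 was above lean replicate 6. The log2 difference was -0.48 (SE 0.12, edgeR unadjusted p = 0.000621, adjusted p = 0.216). Robo1 and Robo2, neuronal Slit receptors, had log2 differences of 0.39 (SE 0.31) and 0.05 (SE 0.20), and Robo4, an endothelial member of the family, one of 0.47 (SE 0.25, edgeR adjusted p = 0.491), with 6 of 6 vehicle libraries above the lean median. The 5 endothelial markers (Cldn5, Flt1, Pecam1, Slco1a4 and Esam) summed to 134 to 209 CPM in vehicle and 97.9 to 157 CPM in lean libraries, where lean replicate 6 was the lowest and the others began at 134 CPM, and their part in the Robo4 difference was not tested.

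The semaphorin system was mixed. Sema6a, a membrane semaphorin that binds class A plexins, was at 13.0 to 23.1 CPM (median 18.4) in vehicle and 17.2 to 34.6 CPM (median 28.2) in lean libraries, a log2 difference of -0.61 (SE 0.16, edgeR unadjusted p = 0.000951, adjusted p = 0.236). Sema4f, another membrane semaphorin, was at 8.38 to 19.5 CPM (median 11.8) in vehicle and 10.9 to 25.3 CPM (median 21.2) in lean libraries, with a log2 difference of -0.68 (SE 0.21, edgeR adjusted p = 0.301). In both genes 6 of 6 vehicle libraries lay under the lean median while the ranges overlapped. Sema7a, which is tethered to the membrane by a lipid anchor, was the 1 member higher at an unadjusted p under 0.05. Its level was 4.45 to 11.1 CPM (median 10.1) in vehicle and 3.06 to 10.4 CPM (median 6.28) in lean libraries. The log2 difference was 0.55 (SE 0.26, edgeR unadjusted p = 0.0497, adjusted p = 0.459). The count of higher members at that level was 0 with DESeq2 and without lean replicate 6, 1 with no filter and 2 with limma voom. Nrp2 (ENSMUSG00000025969), the neuropilin that class 3 semaphorins such as Sema3f bind, was at 26.3 to 39.6 CPM (median 34.8) in vehicle and 32.8 to 62.1 CPM (median 48.5) in lean libraries, a log2 difference of -0.52 (SE 0.14, edgeR unadjusted p = 0.00102, adjusted p = 0.236). Its relative Nrp1, which also binds vascular growth factor, differed by -0.17 (SE 0.15). Of the 8 tested plexins 4 had a log2 difference above 0 and 4 below it, with 0 at an unadjusted p under 0.05 in edgeR.

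In the ephrin system the B class held 4 of its 7 tested genes at an unadjusted p under 0.05, all lower in vehicle mice. In the A class 1 of 3 tested ligands and 0 of 4 tested receptors were lower at that level, against 5.55% of all tested genes. The ligand Efnb3 was at 44.8 to 59.3 CPM (median 50.9) in vehicle and 58.8 to 73.0 CPM (median 64.0) in lean libraries, with a log2 difference of -0.33 (SE 0.10, edgeR unadjusted p = 0.00280, adjusted p = 0.292). Its groups overlapped by a narrow margin, and here lean replicate 4 was the lowest lean library. The ligand Efnb1 was at 3.66 to 13.2 CPM (median 6.97) in vehicle and 7.81 to 16.0 CPM (median 13.0) in lean libraries, a log2 difference of -0.68 (SE 0.25, edgeR adjusted p = 0.359). Ephb1 (ENSMUSG00000032537), a receptor of B-class ephrins, was at 22.6, 21.5, 19.4, 31.2, 30.6 and 32.9 CPM in vehicle libraries, against 40.1, 36.7, 35.9, 36.3, 38.4 and 28.1 CPM in lean libraries. The vehicle values fell into 3 lower and 3 higher libraries, all below the 5 lean libraries other than replicate 6. The log2 difference was -0.44 (SE 0.13, edgeR adjusted p = 0.275), and that of Ephb3 was -0.54 (SE 0.19, adjusted p = 0.351). In the A class the ligand Efna5 was at 10.4 to 23.3 CPM (median 17.4) in vehicle and 15.6 to 32.4 CPM (median 25.4) in lean libraries, a log2 difference of -0.47 (SE 0.19, edgeR adjusted p = 0.389), while the most abundant receptors Epha5 and Epha4 differed by -0.27 (SE 0.20) and -0.30 (SE 0.18).

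**Figure D3:**
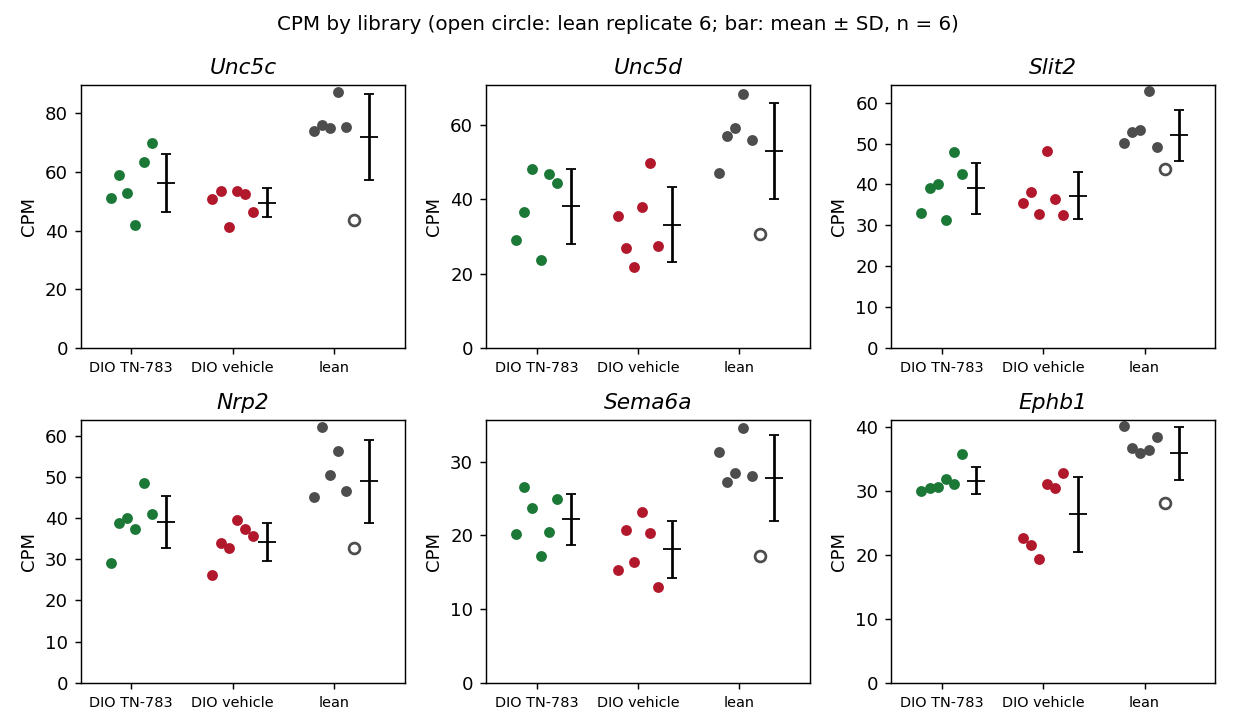
CPM of Unc5c, Unc5d, Slit2, Nrp2, Sema6a and Ephb1 in each library of DIO TN-783 (green), DIO vehicle (red) and lean (grey) mice, with mean ± SD (n = 6) beside the points. Lean replicate 6, drawn as an open circle, is the lowest lean library in each panel, and for Unc5c it lies at 43.7 CPM while the other lean libraries lie between 74.1 and 87.4 CPM.

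Lean replicate 6 was the lowest lean library for 11 of the 12 lower members. Without it 7 members were called, all of them lower in vehicle mice, among 346 called genes of 11984 tested (1.25% called lower, 1.64% called higher; edgeR, Benjamini-Hochberg). These were Unc5c (log2 difference -0.64, SE 0.11, adjusted p = 0.0122), Nrp2 (-0.60, SE 0.13, adjusted p = 0.0209), Sema6a (-0.70, SE 0.15, adjusted p = 0.0209), Unc5d (-0.78, SE 0.18, adjusted p = 0.0285), Slit2 (-0.52, SE 0.12, adjusted p = 0.0299), Sema4f (-0.80, SE 0.20, adjusted p = 0.0329) and Ephb1 (-0.50, SE 0.13, adjusted p = 0.0398). Of the 52 members 6 then had all vehicle values below all lean values (Epha4, Ephb1, Nrp2, Sema6a, Slit2 and Unc5c), against 1.77% of tested genes, while with all libraries 0 members did, against 0.237%. The library was left out because earlier results of these data had shown it to stand apart, so the count of 7 is a description of how far 1 library sets the result.

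RNA integrity and ribosomal content were then added to the fit. With the RNA integrity score as a covariate 9 members were lower at an unadjusted p under 0.05, against 2.92% of all tested genes, and 0 were called. Ribosomal protein genes took 4.52 to 6.98% of counts in vehicle and 4.89 to 7.27% in TN-783 libraries. In lean libraries other than replicate 6 they took 4.09 to 4.94%. Ribosomal content thus went in part with group, and a fit with both cannot fully tell them apart. With the mean of 79 ribosomal protein genes as a covariate 7 were lower, against 2.88%, and 0 were called. The median log2 difference of the 52 members became 0.06, on the other side of 0. With that covariate Unc5c had a log2 difference of -0.28 (SE 0.11), Unc5d -0.27 (SE 0.13) and Ntng1 -0.13 (SE 0.13), while Efnb3 was at -0.33 (SE 0.11), as in the fit without it. The 6 neuron markers summed to 1505 to 2282 CPM in vehicle and 1503 to 2268 CPM in lean libraries, where all but lean replicate 6 were at 2028 CPM or more, and their median log2 difference was -0.22. The 6 oligodendrocyte markers averaged a sum of 4660 CPM in vehicle and 3271 CPM in lean libraries (2965 to 7268 and 2320 to 6082 CPM), and without lean replicate 6 the lean libraries ended at 3005 CPM. Their median log2 difference was 0.40, and the part of both cell types in the members' differences was not tested. Without vehicle replicates 2 and 4, which held pituitary transcripts, 12 members were lower at an unadjusted p under 0.05, against 5.32% of the 12107 genes then tested, and 0 were called.

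**Figure D4:**
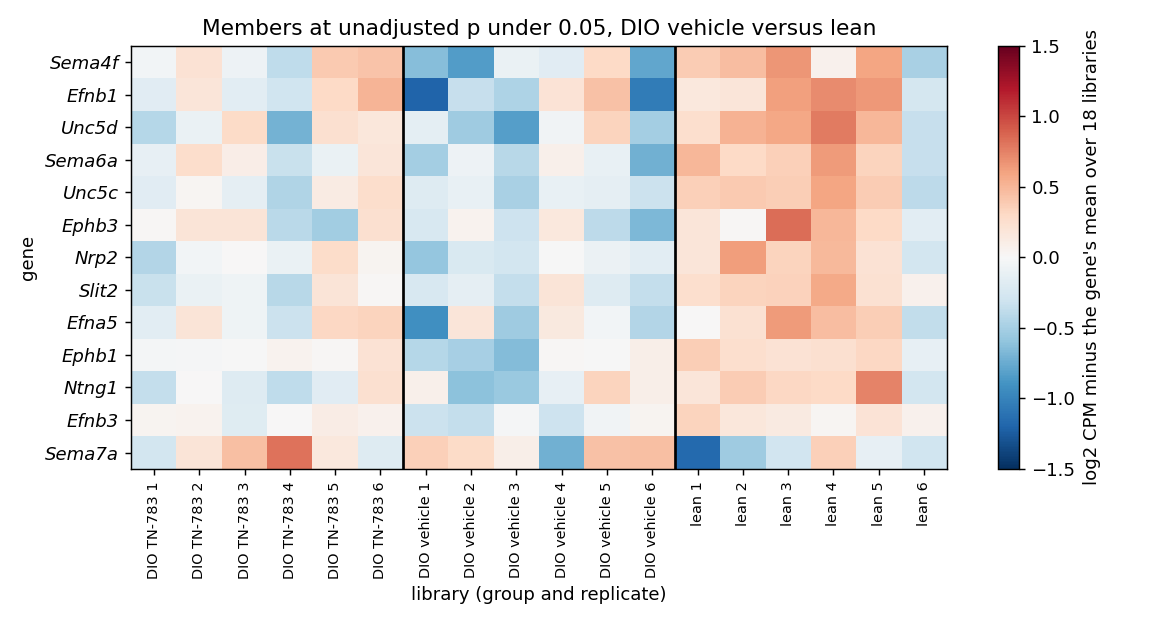
Log2 CPM of the 13 members at an unadjusted p under 0.05 (rows), minus the gene's mean over 18 libraries, in each library (columns) of DIO TN-783, DIO vehicle and lean mice. For Unc5c, Unc5d, Ephb1, Ephb3, Nrp2, Sema6a, Sema4f, Ntng1, Efnb1 and Efna5 lean replicate 6 is below the gene's mean. The other lean libraries are above the mean for these genes.

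**Figure D5:**
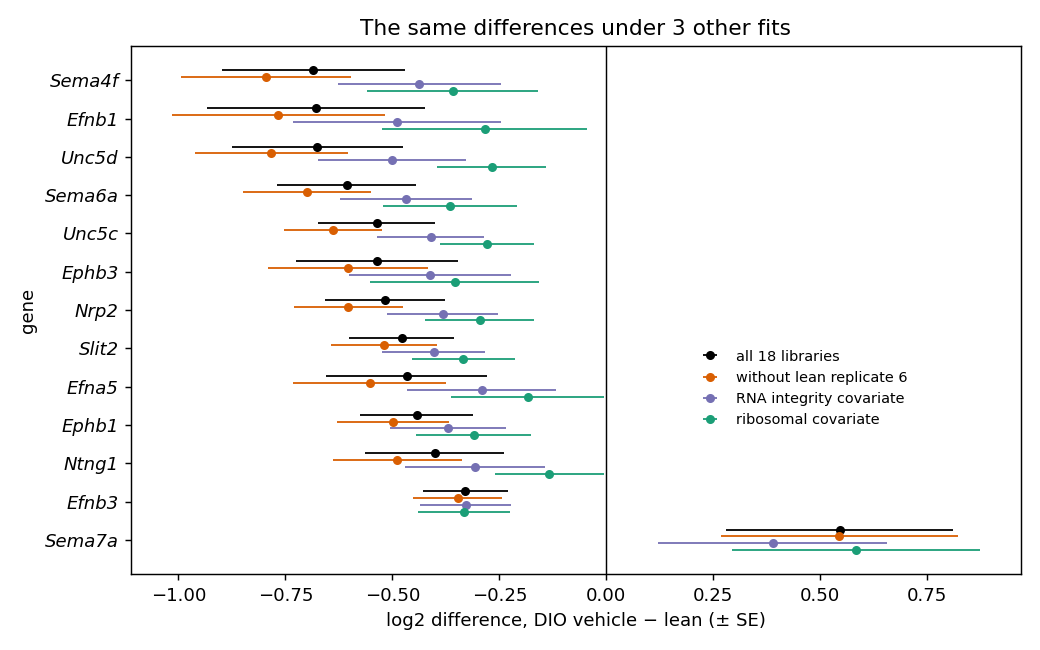
Log2 difference with its standard error, DIO vehicle minus lean, of the 13 members at an unadjusted p under 0.05, with all 18 libraries (black), without lean replicate 6 (orange) and with RNA integrity (purple) or the ribosomal protein mean (green) as a covariate. Every point kept its side of 0 in these 4 fits, and that of Unc5d lies at -0.78 without lean replicate 6 and at -0.27 with the ribosomal covariate.

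TN-783 was then set against vehicle within obese mice, and here no member passed. By edgeR 0 of 52 were called, as were 0 of all tested genes, and DESeq2 called 0. At an unadjusted p under 0.05 there were 3 members, Sema3e and Sema3a lower and Sema4f higher, which is 5.77% of members against 2.61% of all tested genes. By direction 3.85% of members were lower, against 1.59% of all tested genes and 1.87% of genes within the members' range of mean CPM, and 1.92% were higher, against 1.02%. Without TN-783 replicate 2, or without vehicle replicate 2, the count at that level was 1. The directions also depended on the fit. DESeq2 gave 2 lower and 1 higher. With limma voom 1 member was lower and 6 were higher, against 1.72% and 1.52% of all tested genes. Without vehicle replicates 2 and 4, 0 were lower and 2 higher, against 0.958% and 1.17% of genes. The groups did not overlap for 0 members, against 0.0253% of genes lower and 0.0422% higher. Of the members 50.0% had a log2 difference below 0, against 51.3% of genes. The median log2 difference over members was -0.003, and over all genes -0.005. Both this comparison and the preceding one use the vehicle libraries, so the values stand side by side without a test of their relation.

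The secreted semaphorins lay on the low side, and their counts were small. Sema3e, a ligand that binds Plxnd1 directly, had 48 counts over the TN-783 libraries and 77 over the vehicle libraries. Its level was 1.62 to 5.10 CPM (median 3.32) in TN-783 and 3.05 to 8.90 CPM (median 4.88) in vehicle libraries, a log2 difference of -0.80 (SE 0.33, edgeR unadjusted p = 0.0227, adjusted p = 1.00). Sema3a, a repellent that acts through Nrp1 and class A plexins, was at 1.62 to 6.80 CPM (median 3.95) in TN-783 and 3.05 to 8.49 CPM (median 6.97) in vehicle libraries, a log2 difference of -0.67 (SE 0.31, edgeR unadjusted p = 0.0394, adjusted p = 1.00). All 6 TN-783 libraries were under the vehicle median for Sema3a and 5 of 6 for Sema3e, and the groups overlapped for both. Without vehicle replicates 2 and 4 the log2 difference of Sema3e was -0.35 (SE 0.37) and that of Sema3a -0.70 (SE 0.36). Sema3d (-0.31, SE 0.25) and Sema3c (-0.06, SE 0.17) had smaller log2 differences. Robo4 was at 3.15 to 7.01 CPM (median 5.10) in TN-783 and 5.09 to 8.47 CPM (median 7.15) in vehicle libraries, a log2 difference of -0.48 (SE 0.26, edgeR adjusted p = 1.00). The endothelial markers summed to 129 to 185 CPM in TN-783 and 134 to 209 CPM in vehicle libraries, and their part in that difference was not tested.

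The 12 genes given above as lower in vehicle than in lean mice had log2 differences between TN-783 and vehicle of -0.03 to 0.48. These genes were picked for low values in the same vehicle libraries, a choice that by itself favours differences above 0 here. Over all 52 tested members 50.0% lay below 0. Sema4f was at 11.9 to 21.3 CPM (median 16.8) in TN-783 and 8.38 to 19.5 CPM (median 11.8) in vehicle libraries, a log2 difference of 0.48 (SE 0.22, edgeR unadjusted p = 0.0395, adjusted p = 1.00). Ephb1 was at 30.0, 30.5, 30.6, 31.8, 31.0 and 35.8 CPM in TN-783 libraries, all above the vehicle median of 26.6 CPM, and its log2 difference was 0.26 (SE 0.13, edgeR unadjusted p = 0.0627, adjusted p = 1.00). Efnb3 averaged 58.5 ± 4.14 CPM in TN-783 and 51.4 ± 6.49 CPM in vehicle mice (SD, n = 6), with a log2 difference of 0.19 (SE 0.10). The log2 differences of Unc5c, Unc5d, Nrp2 and Sema6a were 0.19 (SE 0.14), 0.20 (SE 0.21), 0.19 (SE 0.14) and 0.28 (SE 0.17), and that of Slit2 was 0.07 (SE 0.13). Those of Efnb1, Efna5, Ephb3 and Ntng1 were 0.41 (SE 0.26), 0.28 (SE 0.19), 0.20 (SE 0.20) and -0.03 (SE 0.17). Each of these had an edgeR adjusted p of 1.00, and the ranges of the groups overlapped.

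Set against lean mice, TN-783 mice had lower levels of Slit2, Ntng1, Unc5c, Nrp2 and Unc5d, again without a call. By edgeR 0 of 52 members were called, as were 0 of all tested genes, while DESeq2 called 10 genes and 0 members. At an unadjusted p under 0.05, 5 members were lower and 1 was higher, 6 of 52 together, against 8.16% of all tested genes. By direction 9.62% of members were lower, against 4.35% of all tested genes and 4.49% of genes within the members' range of mean CPM, and 1.92% were higher, against 3.81%. Slit2 was at 31.3 to 48.0 CPM (median 39.6) in TN-783 and 43.7 to 62.7 CPM (median 51.5) in lean libraries, a log2 difference of -0.41 (SE 0.12, edgeR unadjusted p = 0.00244, adjusted p = 0.567). Ntng1 differed by -0.43 (SE 0.16), Unc5c by -0.35 (SE 0.13), Nrp2 by -0.33 (SE 0.14) and Unc5d by -0.47 (SE 0.20), each with 6 of 6 TN-783 libraries under the lean median and an adjusted p of 0.611. Sema7a was at 6.39 to 14.6 CPM (median 9.03) in TN-783 and 3.06 to 10.4 CPM (median 6.28) in lean libraries, a log2 difference of 0.56 (SE 0.26, edgeR adjusted p = 0.611). Without lean replicate 6, 13 members were lower at an unadjusted p under 0.05 and 0 were higher. Over all genes then tested 9.03% were lower and 10.3% higher at that level, and 0 members were called. The edgeR adjusted p was then 0.0713 for Unc5c (log2 difference -0.45), 0.0760 for Slit2, 0.0890 for Ntng1, 0.0935 for Nrp2 and 0.0942 for Unc5d. With the ribosomal covariate 1 member was lower, against 1.88% of genes, and 3 were higher, against 2.26% of genes. The median log2 difference of the members was then 0.04, against -0.13 without the covariate, which went in part with group here too. The hypothalamic markers had a median log2 difference of -0.22, with 4 of 8 at an unadjusted p under 0.05, and their part was not tested.

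Other genes of the pathway were counted in 2 lists. Of 33 co-receptors and further guidance cues 30 were tested and 0 were called in any comparison. In vehicle against lean mice 5 were lower and 1 higher at an unadjusted p under 0.05, against 5.55% of all tested genes lower and 5.32% higher, with a median log2 difference of -0.15 against 0.01 over all genes. The 2 with the smallest p were Wnt5a, a secreted cue that guides axons through the receptor Ryk, with -0.61 (SE 0.18, edgeR adjusted p = 0.269), and Flrt3, which binds Unc5 receptors, with -0.29 (SE 0.12, adjusted p = 0.380). In TN-783 against vehicle mice 0 of the 30 had an unadjusted p under 0.05, and Rgma (0.15, SE 0.11) and Sdc3 (0.16, SE 0.12) had the smallest. Wnt5a was at 10.3 to 19.0 CPM in TN-783, 9.26 to 22.1 in vehicle and 20.3 to 29.0 in lean libraries. Its TN-783 and lean libraries did not overlap, which held, in the direction of lower TN-783 values, for 0.186% of all tested genes, and the log2 difference was -0.67 (SE 0.18, edgeR adjusted p = 0.421); Flrt3 followed with -0.38 (SE 0.11, adjusted p = 0.567).

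Of 48 intracellular effectors 46 were tested and 0 were called. In vehicle against lean mice 3 were lower and 1 higher at an unadjusted p under 0.05, against 5.55% of all tested genes lower and 5.32% higher, a share near that of all genes, with a median log2 difference of -0.03. Dock1, an activator of Rac1, had a log2 difference of 0.48 (SE 0.15, edgeR adjusted p = 0.299) and Sos1, an activator of Ras and Rac, one of -0.33 (SE 0.11, adjusted p = 0.345). In TN-783 against vehicle mice 1 was higher at that level, against 1.02% of all tested genes, the collapsin response mediator Crmp1 with 0.24 (SE 0.12, edgeR adjusted p = 1.00), followed by its relative Dpysl3 with 0.21 (SE 0.13). In TN-783 against lean mice the kinase gene Pak3 differed by -0.27 (SE 0.12) and the GTPase gene Rac1 by 0.19 (SE 0.09), both with an edgeR adjusted p of 0.611.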

How the data were processed

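Hypothalamus libraries of 6 TN-783, 6 vehicle and 6 lean mice were made with a 3' poly(A)-primed kit carrying unique molecular identifiers and 18 PCR cycles, as the labels' protocols state. The authors deposited estimated counts for 56980 features. GRCm39, Salmon 1.10.1, STAR 2.7.9a, R 4.5.1 and edgeR 4.6.2 are named by the submitters' processing notes without a role. The sources do not state the annotation, how identifiers were collapsed or whether strand was used. The authors also deposited log2 CPM, which differed by at most 8.88e-15 from values computed here with their scaling factors, a deposited ratio for every library. RNA integrity is the deposited score. Rounded counts were filtered with filterByExpr (minimum count 10), scaled by TMM and fitted with edgeR 4.0.16 (R 4.3.3, robust quasi-likelihood, 15 residual degrees of freedom, all 3 groups together), with Benjamini-Hochberg adjustment over 11835 genes at a threshold of 0.05. The design assumed whole counts, so estimated counts were rounded first. The standard error is the log2 difference divided by the square root of F. Alternatives used DESeq2 1.42.0 and limma 3.58.1.

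The members and lists were chosen with earlier results of these data known. Named members are those called, the 6 with the smallest p per comparison and the most abundant of each family; for each pathway list the 2 with the smallest p are named. Other members at an unadjusted p under 0.05 or beside them in a family were chosen after their values were seen.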

Additional observations from a re-analysis of the deposited data

Results flagged for a closer look

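Among 21 named genes, 63 groups of 6 libraries were examined for a single library far from the rest, of which chance flags about 1 in 20, and 5 were found. Unc5c in lean replicate 6 was at 43.7 CPM, against 74.1 to 87.4 CPM in the other lean libraries, and Ephb1 in the same library at 28.1 CPM, against 35.9 to 40.1. Ephb1 in TN-783 replicate 6 was at 35.8 CPM, against 30.0 to 31.8 in the other TN-783 libraries. Slit2 in vehicle replicate 4 was at 48.1 CPM, against 32.4 to 38.3 in the other vehicle libraries. Sema6d in TN-783 replicate 4 was at 89.6 CPM, against 78.6 to 82.1 in the other TN-783 libraries.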

How the results depend on the processing

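Members at an unadjusted p under 0.05 kept the sign of their log2 difference in every alternative run, except that Sema3e had no value with only the 2 groups compared. Dcc and Unc5a, near 0 for vehicle versus lean (0.02 and 0.04), were at -0.05 and -0.06 without lean replicate 6. For DIO vehicle versus lean the count of called genes was 22 with DESeq2, 126 with no filter, 133 with limma voom and sample weights, 0 with at least 1 CPM in 6 libraries, with the ribosomal covariate, without vehicle replicates 2 and 4, and with only the 2 groups compared, and 0 to 346 when each library was left out (346 without lean replicate 6, 6 without vehicle replicate 5 and at most 3 otherwise). Members called were 5 with no filter, 7 with voom and 0 to 7 when each library was left out; the 7 of voom are the 7 called without lean replicate 6. Members at an unadjusted p under 0.05 were 8 with the ribosomal covariate. Adjusted p over all alternatives was at least 0.0102 for Unc5c, 0.0299 for Slit2, 0.0209 for Sema6a and Nrp2, 0.0354 for Ephb1, 0.00120 for Unc5d and 0.0329 for Sema4f. For TN-783 versus vehicle 6 genes were called with no filter. Members at an unadjusted p under 0.05 were 7 with voom (1 lower and 6 higher). They were 1 to 4 when each library was left out (1 without TN-783 replicate 2 or vehicle replicate 2). For TN-783 versus lean the called genes were 10 with DESeq2, 27 with no filter, 1 with the replicate block, 2 with RNA integrity, 9 with voom, 5 with only the 2 groups and 0 to 5 when each library was left out (5 without vehicle replicate 5); members at an unadjusted p under 0.05 were 11 with no filter, 13 with voom and 4 to 13 when each library was left out. Pairing of libraries by replicate number was described and not tested. The correlation of same-numbered libraries ran from -0.125 to 0.385 for vehicle versus lean, where 4 of 12 libraries matched best with their own number. It ran from -0.400 to 0.0916 in the other comparisons, where 0 did. With the replicate block 1, 0 and 1 genes and 0 members were called, and 12, 3 and 5 members had an unadjusted p under 0.05 (vehicle versus lean, TN-783 versus vehicle, TN-783 versus lean). At these depths members with a few CPM rest on about 10 counts a library, which limits what can be seen.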
